A study of Mus musculus with 5 samples.

Results

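The hypoxia and glycolysis genes described here are 36 mouse genes chosen by name: targets of the hypoxia-inducible factors (HIF) and enzymes, transporters and regulators of glycolysis. Of these, 34 matched a named probe on the array by their symbol, out of 19572 named probes and 22203 probes in all, and each of the 34 had 1 probe. Gpi1 and Eno1 matched no named probe and were not analysed here. RNA came from 5 subcutaneous tumours, 1 per mouse, grown in wildtype C57BL/6 mice aged 10 weeks from B16.F10 cells, a single mouse melanoma line that carried luciferase and green fluorescent protein. Every mouse received injections of anti-PD-1, a checkpoint-blocking antibody that keeps T cells active, on days 1, 4 and 8. Of the mice, 2 were also given vehicle by mouth (corn oil with 5% DMSO; tumours numbered 3 and 4 in the labels) and 3 were given RG7112, an oral MDM2 antagonist of the nutlin type that frees p53 from MDM2 (tumours 1, 2 and 3), every second day over 6 days. The oral start was recorded as 2 days after injection for all 5 tumours. Tumours were taken on day 13. There was no group without anti-PD-1, so the comparison was of RG7112 with vehicle, both on an anti-PD-1 background.

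When oxygen is sufficient, prolyl hydroxylases of the Egln family mark HIF alpha subunits for destruction by the von Hippel-Lindau protein. When oxygen is short the alpha subunit persists, pairs with Arnt and binds a short DNA core near genes of glucose uptake, glycolysis, vessel growth, acid export and mitochondrial turnover. Many tumours also keep glycolysis running in the presence of oxygen, so the enzymes are abundant in cancer cells as well as in activated immune cells. p53 is known to act on several of the same genes, among them Ddit4, an inhibitor of the growth kinase mTORC1.

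The HIF core can be seen in the promoters of the genes with the largest differences in the data below. The 250 bases before the annotated start are shown 5' to 3' from RefSeq (GRCm38.p6) for Ddit4 (chr10:59951771-59952020, minus strand) and Ankrd37 (chr8:45999851-46000100, minus strand), which were lower with RG7112, and for both listed starts of Pfkfb3 (chr2:11553930-11554179 and chr2:11502091-11502340, minus strand), which was higher. Capitals mark every ACGTG or GCGTG on either strand.
Ddit4: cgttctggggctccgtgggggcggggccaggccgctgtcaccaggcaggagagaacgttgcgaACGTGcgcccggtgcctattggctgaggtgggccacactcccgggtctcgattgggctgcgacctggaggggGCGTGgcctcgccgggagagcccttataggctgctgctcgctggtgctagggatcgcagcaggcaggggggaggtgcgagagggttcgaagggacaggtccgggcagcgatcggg
Ankrd37: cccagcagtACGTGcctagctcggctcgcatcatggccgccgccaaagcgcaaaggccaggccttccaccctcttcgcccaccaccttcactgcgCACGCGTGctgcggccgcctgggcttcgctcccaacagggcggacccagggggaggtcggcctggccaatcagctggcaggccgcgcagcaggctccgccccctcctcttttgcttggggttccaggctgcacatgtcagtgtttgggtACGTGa
Pfkfb3, first start: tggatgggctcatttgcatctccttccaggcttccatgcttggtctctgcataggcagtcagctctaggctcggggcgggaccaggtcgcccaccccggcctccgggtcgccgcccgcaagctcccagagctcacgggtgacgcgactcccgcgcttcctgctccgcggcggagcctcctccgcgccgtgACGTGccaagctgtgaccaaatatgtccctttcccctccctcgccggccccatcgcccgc
Pfkfb3, second start: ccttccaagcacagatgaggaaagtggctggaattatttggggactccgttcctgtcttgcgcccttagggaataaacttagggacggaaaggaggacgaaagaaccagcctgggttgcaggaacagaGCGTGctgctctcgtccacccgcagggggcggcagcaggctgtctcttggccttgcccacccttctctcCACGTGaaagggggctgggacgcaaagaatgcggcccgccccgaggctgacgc
The Ddit4 window held 2 matches and the Ankrd37 window 4, of which 2 overlap. The windows of Pfkfb3 held 1 and 3, and 2 of the 3 lie on opposite strands of a single CACGTG, the E-box, which is also a site for Myc-family proteins. Promoter sequences were found for 34 of the 36 genes (not for Bnip3l and Ndrg1). These are not the 34 measured genes, as they include Eno1 and Gpi1, which had no named probe. Of them, 31 had at least 1 match in 1 of their windows (91.2%), against 48.8% of the 15691 genes with a named probe and a listed promoter. By window, 41 of 52 matched (78.8%), against 45.5% of all windows of genes with a named probe. The windows of the hypoxia and glycolysis genes were richer in G and C (median 62.8% against 56.0%) and more numerous per gene (1.53 against 1.22), and the part of either in the share was not tested. The genes were listed as HIF targets, so the motif share is a description of the list. The 3 genes without a match in these windows were Eno2, Tpi1 and Gpi1.

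The array values are log2 signals, so a difference of 1 is a doubling. Medians of the 5 arrays lay between 5.76 and 5.81, and values ran from 2.53 to 13.3. Correlations between arrays, taken across probes, were 0.983 to 0.992. The melanocyte identity of the tumours was clear: all 8 melanocyte markers were above the array medians, and their mean was 11.9 to 12.0 in every tumour. Of 9 measured macrophage markers, 7 passed the test and were higher with RG7112 (1 without vehicle replicate 4), with list means of 6.26 to 6.52 in vehicle tumours and 7.55 to 7.85 in RG7112 tumours. Aif1, a calcium-binding protein of macrophages, had the smallest p of them (log2 fold change 2.57 ± 0.20, limma adjusted p = 0.000303). In whole tumours, fewer cells of a type and less RNA per cell cannot be told apart.

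No hypoxia or glycolysis gene passed the test. In limma, fitted over all 22203 probes with adjustment by Benjamini-Hochberg, 0 of 34 were called at an adjusted p under 0.05, where 1.45% of all probes were called, almost all of them higher (1.42% higher and 0.0315% lower). At an unadjusted p under 0.05, 4 of 34 passed, where 8.89% of all probes did: 1 was higher (Pfkfb3; 4.83% of all probes) and 3 were lower (Ddit4, Ankrd37 and Bnip3l; 4.06% of all probes). The groups did not overlap in 2 genes that were higher (10.8% of all probes) and 7 that were lower (14.0% of all probes). The median log2 fold change of the 34 genes was -0.06, against -0.03 for all probes, and 22 of 34 were below 0 (64.7%, against 55.2% of all probes). In 31 of 34 genes the 95% interval of the difference lay within -1 and 1, so a doubling or a halving was outside the interval. This was no trait of the set, since the same held for 21289 of all 22203 probes. Among the 34 genes the exceptions were Ddit4, Ankrd37 and Pfkfb3.

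**Figure D1:**
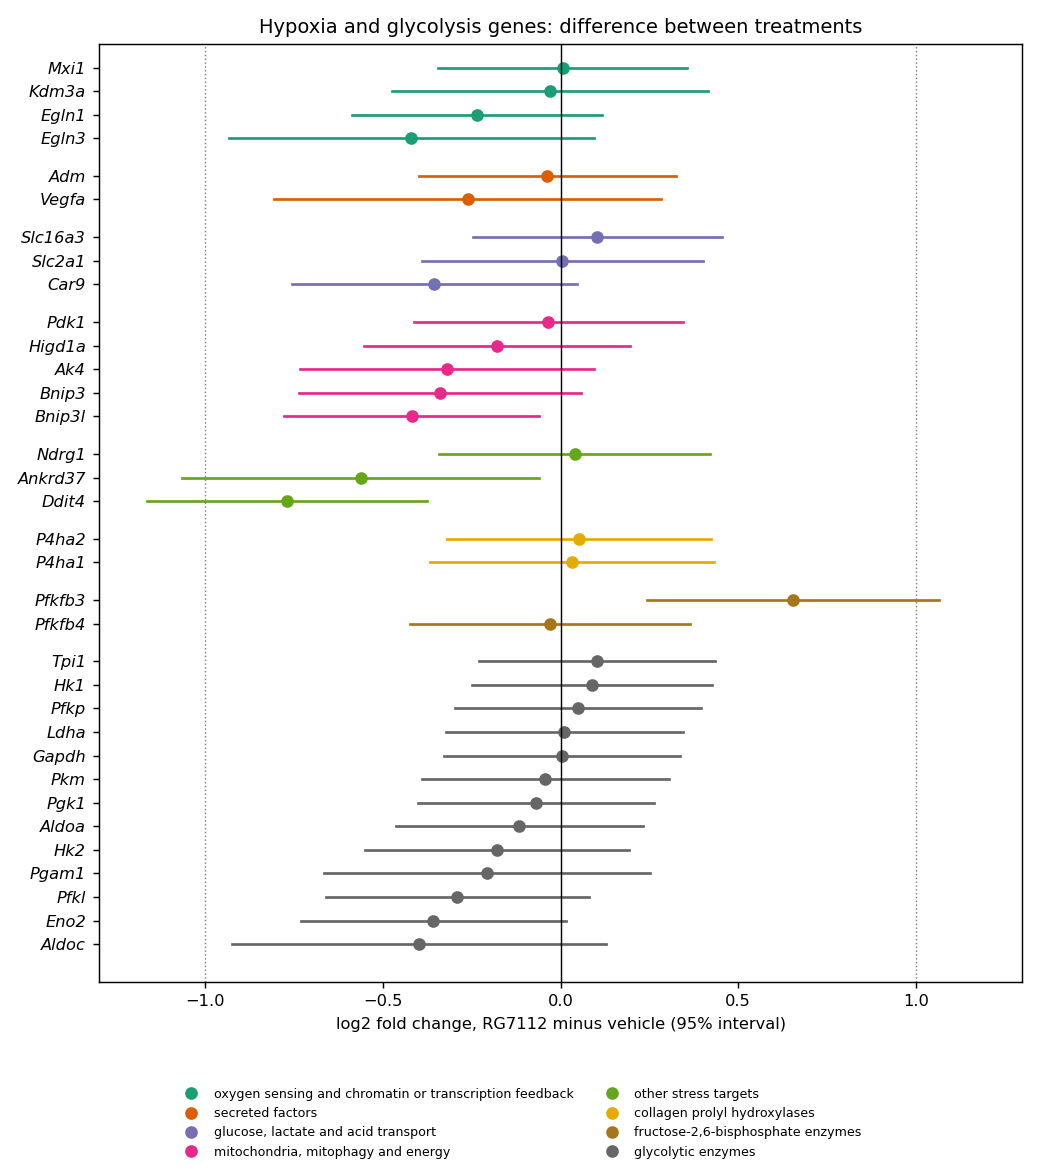
Log2 fold change, RG7112 minus vehicle, of the 34 measured genes, with the 95% interval from limma (2 vehicle and 3 RG7112 tumours), coloured by role; dotted lines mark a doubling and a halving. Most intervals span 0, and those of Ddit4, Ankrd37 and Bnip3l lie below it and that of Pfkfb3 above it, before adjustment for the number of probes.

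Ddit4 had the largest difference of the set. It encodes a short-lived inhibitor of mTORC1 and is a known target of HIF, p53 and the stress factor ATF4. Its signal was 9.30 and 9.05 in the vehicle tumours and 8.35, 8.22 and 8.64 in the RG7112 tumours. All 3 RG7112 tumours lay below both vehicle tumours. The log2 fold change was -0.77 ± 0.18 (SE), or 0.586-fold with a 95% interval of 0.446 to 0.770, and the limma adjusted p was 0.0748. It passed at 0.0238 with an intensity trend in the variance model and at 0.0389 with array weights, and over all alternatives the adjusted p ran from 0.0238 to 0.670, the highest without vehicle replicate 3.

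Ankrd37, an ankyrin-repeat protein used as a marker of hypoxia, was at 7.45 and 6.71 in the vehicle tumours and at 6.72, 6.57 and 6.26 in the RG7112 tumours. The spread of the vehicle tumours was as wide as the difference, and RG7112 replicate 1 lay just above vehicle replicate 4. The log2 fold change was -0.56 ± 0.23 (limma adjusted p = 0.476). It was -0.19 without vehicle replicate 3 and -0.94 without vehicle replicate 4. Ndrg1, a stress-response gene long used as a hypoxia marker, was at 8.63 and 8.20 against 8.51, 8.45 and 8.39, so that all 3 RG7112 tumours lay between the vehicle tumours (log2 fold change 0.04 ± 0.17).

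**Figure D2:**
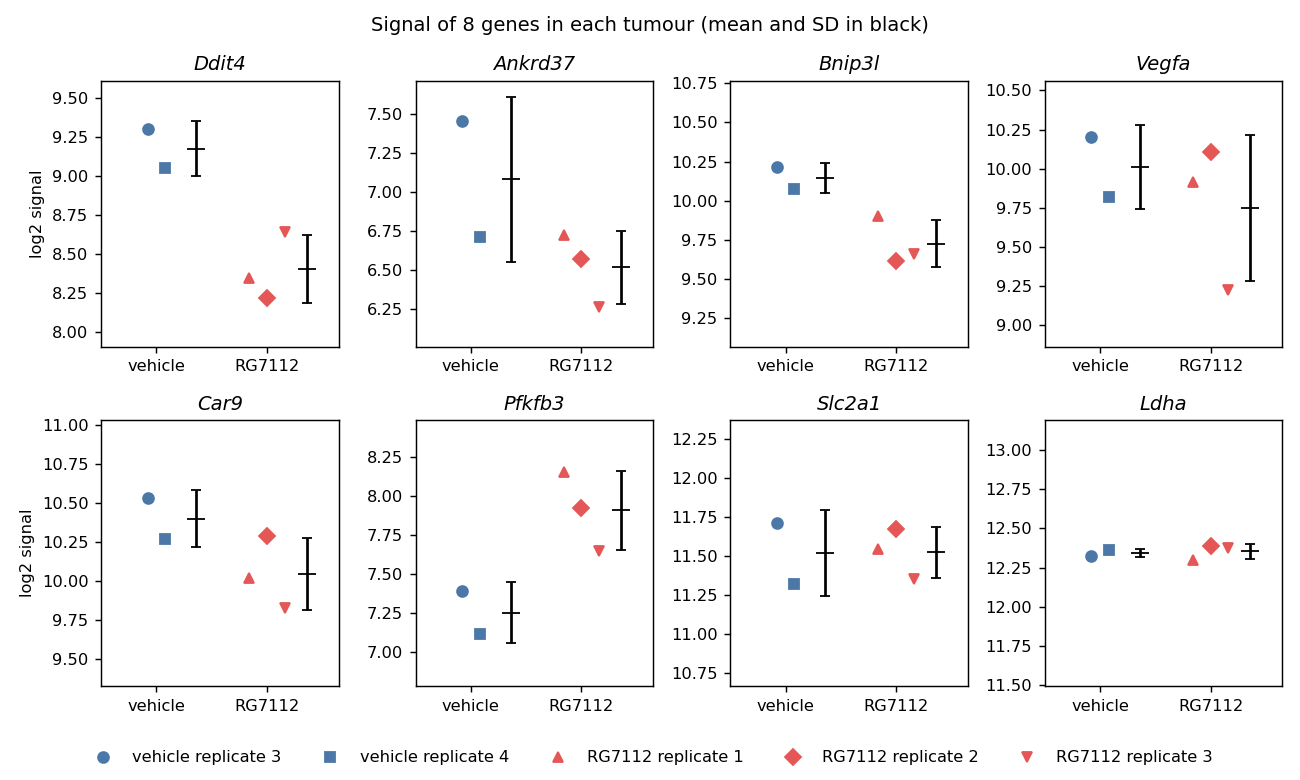
Log2 signal of 8 genes in each tumour, with the group mean and SD in black; the y axes of all panels span the same number of log2 units. Ddit4 and Bnip3l are lower and Pfkfb3 is higher in all 3 RG7112 tumours, Vegfa and Slc2a1 overlap, and Ldha stays between 12.3 and 12.4.

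Genes that act in mitochondria and energy supply had differences below 0 in 5 of 5 cases, with a median log2 fold change of -0.32, but none passed the test, and Pdk1 turned to 0.0055 with array weights. Bnip3 and Bnip3l encode receptors that mark mitochondria for removal by autophagy. Bnip3l was at 10.21 and 10.08 with vehicle and at 9.90, 9.62 and 9.66 with RG7112, without overlap. Its log2 fold change was -0.42 ± 0.16 (limma adjusted p = 0.444). Bnip3 was at 10.75 and 10.35 against 10.24, 10.36 and 10.03. RG7112 replicate 2 lay level with vehicle replicate 4, and the log2 fold change was -0.34 ± 0.18. Ak4, a mitochondrial adenylate kinase, differed by -0.32 ± 0.19, and Higd1a, a hypoxia-induced protein of the respiratory chain, by -0.18 ± 0.17. Pdk1, the kinase that restrains pyruvate dehydrogenase and so the entry of pyruvate into the citrate cycle, was at 9.44 and 9.31 against 9.28, 9.57 and 9.17, with a difference of -0.03 ± 0.17.

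The oxygen sensors are themselves HIF targets and form a feedback loop. Egln1, the main HIF prolyl hydroxylase, was at 10.49 and 10.34 with vehicle and at 10.16, 10.31 and 10.07 with RG7112. The groups did not overlap, but vehicle replicate 4 and RG7112 replicate 2 were close, and the log2 fold change was -0.24 ± 0.16 (limma adjusted p = 0.760). Egln3, the hydroxylase most strongly induced by hypoxia, was at 6.50 in both vehicle tumours and at 6.48, 6.19 and 5.58 in the RG7112 tumours. RG7112 replicate 3 made most of this difference, which was -0.42 ± 0.23 with it and -0.17 without it. Kdm3a, a HIF-induced histone demethylase, differed by -0.03 ± 0.20, and Mxi1, an antagonist of Myc, by 0.01 ± 0.16.

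Neither secreted factor differed beyond its spread. Vegfa, the main growth factor for blood vessels, was at 10.20 and 9.82 with vehicle and at 9.91, 10.11 and 9.22 with RG7112. RG7112 replicates 1 and 2 lay between the vehicle tumours and replicate 3 lay well below both. The log2 fold change was -0.26 ± 0.25 (limma adjusted p = 0.853), and 0.0022 without RG7112 replicate 3. The mean of 8 endothelial markers was higher in the same RG7112 tumours, at 6.44 to 6.67 against 6.11 to 6.18. The median log2 fold change of the list was 0.34, with 1 of 8 below 0. At an unadjusted p under 0.05, 4 of 8 were higher (4.83% of all probes): Kdr, Cdh5 (0.75 ± 0.18), Emcn (0.63 ± 0.17) and Pecam1 (0.41 ± 0.17). Tie1 differed by 0.28 ± 0.16, Tek by 0.25 ± 0.16, Cldn5 by 0.03 ± 0.20 and Esam by -0.21 ± 0.19. Of the 8, 1 passed (Kdr, the VEGF receptor, 1.01 ± 0.19, limma adjusted p = 0.0203). The Kdr call was lost without either vehicle tumour or without RG7112 replicate 2 or 3. Its log2 fold change ran from 0.82 to 1.19 with each tumour left out. Adm, a vasodilator peptide, was at 10.19 and 9.88 against 9.96, 9.94 and 10.08, a difference of -0.04 ± 0.16.

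No gene for transport of glucose, lactate or acid passed the test. Slc2a1, the glucose carrier GLUT1, was at 11.71 and 11.32 with vehicle and at 11.55, 11.67 and 11.35 with RG7112. All 3 RG7112 tumours lay between the vehicle tumours, and the difference was 0.01 ± 0.18, with a 95% interval from -0.39 to 0.40. Slc16a3, the lactate exporter MCT4, differed by 0.10 ± 0.16. Car9, the cell-surface carbonic anhydrase that is among the most specific HIF targets, was at 10.53 and 10.27 with vehicle and at 10.02, 10.29 and 9.83 with RG7112. RG7112 replicate 2 overlapped the vehicle tumours, and the log2 fold change was -0.35 ± 0.18 (limma adjusted p = 0.636). The collagen prolyl hydroxylase subunits P4ha1 and P4ha2, which modify collagen for stable helices, differed by 0.03 ± 0.18 and 0.05 ± 0.17.

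Pfkfb3 was the only gene of the set that was higher with RG7112 by more than 0.5, while Ddit4 and Ankrd37 were lower by more than 0.5. It makes fructose-2,6-bisphosphate, the strongest activator of phosphofructokinase, and is induced by HIF and by inflammatory signals. Its signal was 7.39 and 7.11 in the vehicle tumours and 8.15, 7.92 and 7.65 in the RG7112 tumours. All RG7112 tumours lay above both vehicle tumours. The log2 fold change was 0.65 ± 0.19, or 1.57-fold with a 95% interval of 1.18 to 2.09, and the limma adjusted p was 0.185, with a range of 0.116 to 0.756 over the alternatives. Its relative Pfkfb4 was at 6.24 and 6.23 with vehicle and at 6.45, 6.22 and 5.95 with RG7112, a difference of -0.03 ± 0.18. Macrophage markers had a median log2 fold change of 1.34 in the same tumours, and their part in the Pfkfb3 difference was not tested.

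Most glycolytic enzymes were bright, and none passed the test. Of 13 measured enzymes 8 had a difference below 0 and 5 above (Gapdh turned to -0.011 with quantile normalization). The median log2 fold change was -0.07, and all 13 differences were smaller than 0.5, as were those of 94.8% of all probes. The signals of Gapdh, Pkm, Aldoa, Pgk1 and Ldha lay within 1 of the highest value on any array in the vehicle mean, and whether the signal still follows the RNA there was not tested. Ldha, which turns pyruvate into lactate, was at 12.32 and 12.36 with vehicle and at 12.30, 12.39 and 12.38 with RG7112. Its difference was 0.01 ± 0.15, with a 95% interval from -0.32 to 0.34. Gapdh, the dehydrogenase of the middle of the pathway, lay between 12.79 and 12.88 in all tumours (0.0048 ± 0.15), and Pgk1, the first ATP-making kinase of the pathway, differed by -0.07 ± 0.15. Pkm, the pyruvate kinase of tumours and most tissues, and Aldoa, the main aldolase, differed by -0.04 ± 0.16 and -0.12 ± 0.16. Tpi1, triose phosphate isomerase, was at 12.00 and 11.99 against 12.07, 12.08 and 12.16, higher in all RG7112 tumours but by only 0.10 ± 0.15.

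The entry steps of the pathway did not pass either. Hk1 and Hk2, the hexokinases that trap glucose as its phosphate, differed by 0.09 ± 0.15 and -0.18 ± 0.17. Pfkl and Pfkp, liver-type and platelet-type subunits of phosphofructokinase, differed by -0.29 ± 0.17 and 0.05 ± 0.16. Pfkl was at 10.75 and 10.78 with vehicle and at 10.35, 10.38 and 10.70 with RG7112, without overlap, although RG7112 replicate 3 came close to the vehicle tumours. Eno2, an enolase best known from neurons, was dim and lower in all RG7112 tumours (5.74 and 5.83 against 5.20, 5.52 and 5.57; -0.36 ± 0.17, limma adjusted p = 0.595). Aldoc, the brain-type aldolase, was at 9.98 and 9.94 with vehicle and at 9.42, 9.17 and 10.09 with RG7112. It had the lowest log2 fold change of the enzymes, -0.40 ± 0.24, with RG7112 replicate 3 above both vehicle tumours, and the value was -0.66 without that tumour. Pgam1, the phosphoglycerate mutase, was also highest in RG7112 replicate 3 and lowest in RG7112 replicate 2, at 10.96 and 11.26 against 10.76, 10.65 and 11.29 (-0.21 ± 0.21).

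**Figure D3:**
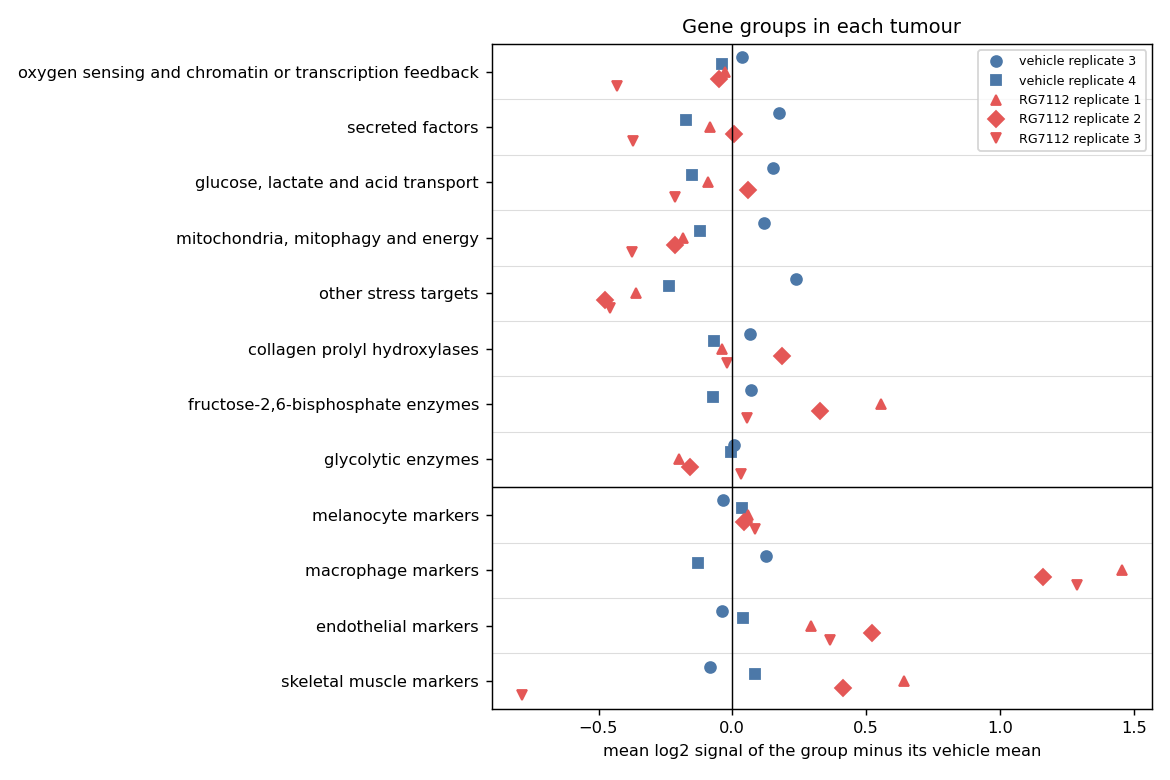
Mean log2 signal of each role group, and of 4 lists of cell type markers for scale, in each tumour, minus the mean of the 2 vehicle tumours. Macrophage markers lie 1.16 to 1.46 above the vehicle mean in RG7112 tumours, whereas no role group moves by more than 0.56 in any tumour. RG7112 replicate 3 is lowest in several role groups other than the glycolytic enzymes.

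The vehicle tumours differed from each other in most of the genes outside the glycolytic enzymes. Among the 21 genes that are not glycolytic enzymes, 19 had a higher signal in vehicle replicate 3 than in vehicle replicate 4 (90.5%, against 49.2% of all probes). The median of this difference was 0.26, where the difference between treatments had a median of -0.04 and a mean of -0.15. The first compares 2 single tumours and the second compares group means, so their sizes are not directly comparable. Means of the 21 were 9.26 and 9.02 with vehicle and 9.07, 9.07 and 8.84 with RG7112. Means of all 34 genes were 9.98 and 9.82 against 9.78, 9.79 and 9.73, without overlap. Vehicle replicate 3 had the highest signal of all 5 tumours in 12 of the 21 (57.1%, against 21.7% of all probes). RG7112 replicate 3 had the lowest in 11 of the 21 (52.4%, against 20.9% of all probes), among them Vegfa, Egln3, Ak4, Car9 and Kdm3a. In the 13 glycolytic enzymes the order was another one: RG7112 replicate 3 was highest in 7 (53.8%, against 20.1% of all probes) and RG7112 replicate 1 lowest in 7 (53.8%, against 24.9%). The enzymes' mean was 11.13 and 11.12 in the vehicle tumours and 10.92, 10.96 and 11.15 in the RG7112 tumours. Among the marker lists, the means of melanocyte, neutrophil, T cell, fibroblast and adipocyte markers were also highest in RG7112 replicate 3, and those of red cell and keratinocyte markers were lowest in RG7112 replicate 1. Adipocyte means were 4.97 and 4.93 in the vehicle tumours and 4.94, 5.41 and 5.97 in RG7112 replicates 1, 2 and 3, and fibroblast means were 7.64 and 7.52 against 7.88, 7.34 and 7.96. Skeletal muscle means were 5.96 and 6.13 against 6.69, 6.46 and 5.26. The part of any of these cell types in the order was not tested. These orders were noticed after the values were seen and carry no test, and RNA quality or tumour size was not compared.

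**Figure D4:**
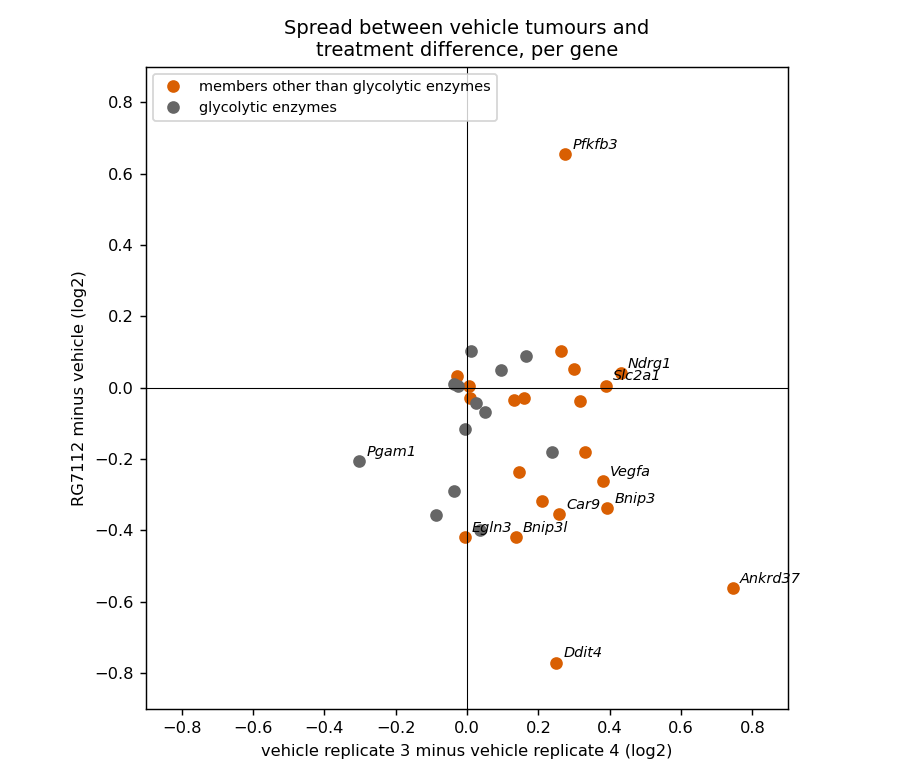
Difference between the 2 single vehicle tumours (x axis) and between the treatment means (y axis) for each of the 34 genes, both on the log2 scale with equal axes. Genes other than glycolytic enzymes lie mostly to the right of 0, with Ankrd37 farthest at 0.75, while glycolytic enzymes scatter around 0 on the x axis.

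Related genes were compared within each array, which asks whether their signals differed unequally between treatments. Of 8 pairs 7 could be compared, since Eno1 matched no named probe. With 10 splits of the tumours the smallest exact permutation p is 0.1 (two-sided), so no pair could pass 0.05. Pfkfb4 over Pfkfb3 showed the largest shift, with log2 ratios of -1.15 and -0.88 in vehicle tumours and -1.70, -1.70 and -1.70 in RG7112 tumours. The difference was -0.68, without overlap (exact permutation p = 0.1, adjusted over the pairs 0.35). Pfkp over Pfkl was at 0.15 and 0.02 against 0.48, 0.46 and 0.33, a difference of 0.34 (exact permutation p = 0.1, adjusted 0.35). Hk2 over Hk1 was lower in all RG7112 tumours, by -0.27 in the mean (exact permutation p = 0.2, adjusted 0.467). The other 4 pairs overlapped, with differences of -0.28 for Aldoc over Aldoa, -0.18 for Egln3 over Egln1, -0.08 for Bnip3l over Bnip3 and 0.02 for P4ha2 over P4ha1 (exact permutation p from 0.4 to 1).

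**Figure D5:**
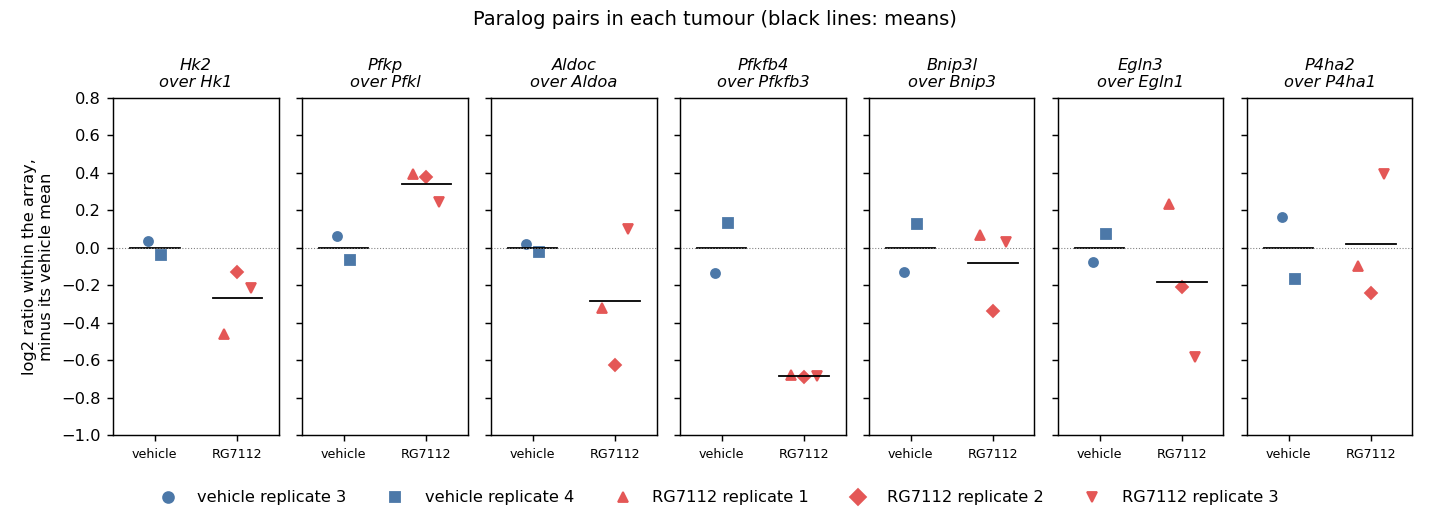
Log2 ratio of 2 related genes within each array, minus its vehicle mean, for the 7 measured pairs; black lines are group means. Pfkp over Pfkl lies above and Pfkfb4 over Pfkfb3 and Hk2 over Hk1 lie below the vehicle tumours in all 3 RG7112 tumours, and the other 4 pairs overlap.

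The genes around the set were measured too. Over all probes, 1.45% passed in limma and 8.89% were at an unadjusted p under 0.05. Of 17 HIF pathway regulators, 0 passed in limma and 1 (Hif1an) was at an unadjusted p under 0.05, with a median log2 fold change of -0.0012. Hif1a, the oxygen-regulated alpha subunit, was at 11.14 and 11.11 with vehicle and at 11.12, 11.24 and 10.91 with RG7112 (-0.04 ± 0.16). Epas1, which encodes the alternative alpha subunit, differed by -0.08 ± 0.17 and the partner Arnt by 0.08 ± 0.17; HIF alpha is controlled mainly as a protein, which was not measured. Hif1an, the asparagine hydroxylase that blocks HIF activity, was at 7.50 and 7.51 against 7.93, 7.90 and 7.83, a difference of 0.38 ± 0.15 (limma adjusted p = 0.460). Vhl differed by 0.26 ± 0.15 and Siah1a, a ubiquitin ligase for Egln proteins, by -0.31 ± 0.16.

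Of 44 other HIF targets, 1 passed and 43 did not (median -0.08), where 1.45% of all probes passed. At an unadjusted p under 0.05 were 3 of the 44, where 8.89% of all probes were. Nos2, the inducible nitric oxide synthase of activated macrophages, rose from 4.45 and 4.67 to 5.41, 5.27 and 5.40, a log2 fold change of 0.80 ± 0.16 (limma adjusted p = 0.0315). Its signal was below the array medians in all tumours, and the call was lost whichever tumour was left out (adjusted p from 0.0689 to 0.441) and with an intensity trend. Of 32 other enzymes of glycolysis and pyruvate use, 0 passed in limma and 2 were at an unadjusted p under 0.05 (median -0.07). Hk3, the hexokinase of myeloid cells, was at 6.81 and 6.52 with vehicle and at 7.21, 7.47 and 7.23 with RG7112, a difference of 0.64 ± 0.17 (limma adjusted p = 0.142), and Gapdhs, the sperm form of Gapdh, differed by -0.54 ± 0.18 at a dim signal. Macrophage markers were higher in the same tumours as Nos2 and Hk3 (7 of 9 passed, mean levels as given above), and their part in these differences was not tested.

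Of 6 pentose phosphate enzymes, which branch from glycolysis to supply ribose and NADPH, 0 passed in limma, and 0 at an unadjusted p under 0.05 (median 0.05; Pgls -0.20 ± 0.18 and Taldo1 0.21 ± 0.20). Of 10 p53 targets in glucose and hypoxia metabolism, 0 passed in limma, where 1.45% of all probes did (median -0.08). At an unadjusted p under 0.05 was 1 of them (Sesn2), where 8.89% of all probes were. Sesn2, which like Ddit4 restrains mTORC1 and answers to p53 and ATF4, was at 7.20 and 6.89 with vehicle and at 6.60, 6.34 and 6.73 with RG7112. All RG7112 tumours were lower, by -0.49 ± 0.18 (limma adjusted p = 0.384). Mdm2, the target of RG7112 and itself induced by p53, was at 9.28 and 9.26 against 9.97, 9.65 and 9.20, a difference of 0.34 ± 0.21 (limma adjusted p = 0.738) in which RG7112 replicate 3 lay below both vehicle tumours.

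Markers of other cell types that could supply hypoxia or glycolysis transcripts were counted beside the set. For scale, 1.45% of all probes passed and 8.89% were at an unadjusted p under 0.05. Of 7 T cell markers 0 passed in limma and 3 were higher at an unadjusted p under 0.05, with list means of 4.77 to 4.85 in vehicle and 5.22 to 5.34 in RG7112 tumours, and Cd3e differed by 0.75 ± 0.21. Of 6 neutrophil markers 0 passed in limma, 1 was at an unadjusted p under 0.05 (Csf3r, 0.62 ± 0.17), and the mean over the 5 tumours was below the array medians in all 6, with Csf3r at 5.01 and 5.43 in vehicle and 5.83, 5.82 and 5.87 in RG7112 tumours. Fibroblast (6 measured), keratinocyte (5), skeletal muscle (7) and red cell (2) markers held 0 called genes in limma, with 0, 1, 1 and 0 at an unadjusted p under 0.05, and 1 muscle marker, Myh1, was called without RG7112 replicate 3 (limma adjusted p = 0.0104). The gene with the smallest p was Lum for fibroblasts (0.36 ± 0.22), Krt14 for keratinocytes (-0.60 ± 0.23), Myh1 for muscle (0.92 ± 0.38), Slc4a1 for red cells (-0.31 ± 0.19) and Mlana for melanocytes (0.24 ± 0.16). In that order the list medians were 0.16, -0.23, -0.00032, -0.26 and 0.07. Differences below 0 were found in 1 of 6, 5 of 5, 4 of 7, 2 of 2 and 2 of 8 markers. Medians were 0.39 for T cell, 0.07 for neutrophil and 0.24 for adipocyte markers, with 0 of 7, 2 of 6 and 1 of 5 below 0. Of 5 adipocyte markers 1 passed (Fabp4, a lipid carrier that macrophages and endothelium also make, 1.18 ± 0.19, limma adjusted p = 0.00991, and 0.216 without vehicle replicate 4), and without RG7112 replicate 1 Adipoq, an adipocyte hormone, was called too (1.74, limma adjusted p = 0.00995). Their part in the values above was not tested.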

How the data were processed

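Whole-tumour RNA was measured on Affymetrix Clariom S mouse arrays, 1 per tumour, each tumour from its own mouse. The authors deposited log2 values; RMA in the oligo package is named in the submitters' processing notes, which gives background correction, quantile normalization and a median-polish summary. Its version and options, the submitters' statistical test and scan dates: not given in the sources used here. Probes were named through the platform annotation: 19572 had 1 symbol. The other 2631 did not carry a single symbol and stood for no gene. The probe with the highest mean stood for a gene.

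RG7112 was compared with vehicle in limma 3.58.1 (R 4.3.3; lmFit, eBayes). P-values were adjusted by Benjamini-Hochberg over the 22203 probes and called under 0.05; 3 residual and 7.92 prior degrees of freedom gave the standard errors and 95% intervals. For this comparison 10 sets of 22203 probes were simulated, with 200 probes changed up or down in each. A log2 change of 0.5 was recovered in 1.94% of probes, 1 in 61.8% and 2 in 99.4%. Most changes of 0.5 were thus missed in such sets, and the number of arrays was not varied. The 7 pairs were tested by exact permutation. The members and lists were chosen with earlier results of these data known. All members are named. Of each other list, the called genes or the 2 with the smallest p are named, with Hif1a, Epas1, Arnt and Vhl. Of each marker list, its smallest-p gene is named, with the other endothelial markers and Adipoq. The alternatives were an intensity trend, a robust fit, array weights, quantile and cyclic loess normalization, leaving out probes below the 40th percentile of mean signal, adjusted p under 0.10, averaging each gene's probes (for role groups and pairs, where it changed nothing because each member has 1 probe), and leaving out each tumour.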

Additional observations from a re-analysis of the deposited data

How the results depend on the processing

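At most 1 of the 34 hypoxia and glycolysis genes passed in limma under any alternative, and where it did it was Ddit4. The count was 1 with an intensity trend, with array weights and at adjusted p under 0.10, and 0 in the others, including each tumour left out. The count of other HIF targets was 0 with an intensity trend and whichever tumour was left out, where Nos2 lost its call, and 0 of the other lists had a call under any alternative. Over all probes, 7 lower calls became 16 with array weights, 4 with cyclic loess, 2 without dim probes and 29 at adjusted p under 0.10. With a tumour left out, 65 to 273 probes were called, 65 to 268 of them higher and 0 to 5 lower, where the fewest came without vehicle replicate 4 (1566 at an unadjusted p under 0.05) and 152 came without vehicle replicate 3. With quantile normalization the sign of the log2 fold change turned in Slc2a1 (-0.027), Ndrg1 (-0.015), Gapdh (-0.011), P4ha1 (-0.00096), P4ha2 (-0.0087) and Mxi1 (-0.055), and that of P4ha2 over P4ha1 to -0.0077. With cyclic loess the sign of the log2 fold change turned in Slc2a1 (-0.0036), Pfkfb4 (0.0047) and Mxi1 (-0.021). With array weights the sign of the log2 fold change turned in Pdk1 (0.0055). With each tumour left out in turn, these differences spanned 0: Vegfa -0.45 to 0.0022, Slc2a1 -0.19 to 0.20, Pdk1 -0.15 to 0.049, Ndrg1 -0.18 to 0.26, Adm -0.20 to 0.12, Pfkfb4 -0.15 to 0.10, Ldha -0.0079 to 0.039, Gapdh -0.012 to 0.032 and Pfkp -0.014 to 0.097. The same held for Pkm -0.11 to 0.013, Slc16a3 -0.028 to 0.24, Kdm3a -0.18 to 0.16, P4ha1 -0.10 to 0.16, P4ha2 -0.099 to 0.20, Mxi1 -0.073 to 0.051, Pgls -0.44 to 0.046, Hif1a -0.11 to 0.053, Epas1 -0.22 to 0.059 and Arnt -0.076 to 0.23. None of these genes was called under any alternative. The within-array differences of the pairs Bnip3l and Bnip3 (-0.21 to 0.048), Egln3 and Egln1 (-0.39 to 0.013) and P4ha2 and P4ha1 (-0.17 to 0.18) spanned 0 too. Group medians ran over the same omissions from -0.19 to 0.20 for transport, -0.42 to -0.14 for mitochondrial genes and -0.90 to -0.19 for the stress targets, with both ends of transport and of stress set by the vehicle tumours. The cause was not tested. No paired analysis was possible, because each tumour came from its own mouse and no label links a vehicle tumour to an RG7112 tumour. With 2 vehicle tumours, each estimate leans on both, and when 1 was left out the lone one was assumed to vary like the RG7112 tumours.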
